A study of Mus musculus with 6 samples.

Results

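Glucocorticoid-responsive genes were examined in whole kidneys of mice that overexpress adiponectin. The 9 genes were chosen by name, and each matched 1 of the 54532 rows of the deposited table through the GENCODE M21 annotation: Fkbp5, Tsc22d3, Sgk1, Zbtb16, Klf9, Cdkn1a, Mt1, Mt2 and Hsd11b1. RNA-seq was performed on 3 Control libraries from KsprtTA mice and on 3 KSPAPN libraries from KsprtTA/TRE-Adiponectin mice, all on the C57BL/6 background, on normal chow and given doxycycline at 600 mg/kg for 4 days. In these mice the Ksp promoter places the doxycycline-dependent activator rtTA in kidney epithelial cells, and KSPAPN mice also carry adiponectin behind the promoter that rtTA switches on. Controls therefore shared the driver and the drug, although their label gives the genotype as wild type. Each library pooled the kidneys of several mice, so a p-value here measures the spread between pools and not between animals. Total counts were 17183358 to 18205023 in Control and 18150442 to 20871173 in KSPAPN libraries. The comparison asks whether a glucocorticoid response goes with the change of gluconeogenic genes.

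Glucocorticoids bind the glucocorticoid receptor, encoded by Nr3c1, which is held by heat shock protein chaperones until it binds hormone and then moves to the nucleus and acts on target genes. In the kidney, 11β-hydroxysteroid dehydrogenases set how much active hormone reaches the receptors, and Hsd11b2 protects the mineralocorticoid receptor in the distal nephron. Glucocorticoids are known to raise Pck1 and gluconeogenesis, and their own level in blood follows the time of day.

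Adipoq checked the genotype labels. Its level was 0.0781, 0 and 0.0824 FPKM (fragments scaled to transcript length and library size) in Control 1, 2 and 3, and 766, 693 and 937 FPKM in KSPAPN 1, 2 and 3. Every library matched its label. One protocol field of the labels speaks of liver although the tissue is given as kidney. The kidney marker Slc34a1, the phosphate transporter of the proximal tubule, was at 980.2 to 1368 FPKM in the 6 libraries, whereas the hepatocyte marker Alb was at 0.275 to 4.46 FPKM.

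Of the 9 genes, 8 passed the filter on low counts and were tested, of which 6 had negative and 2 positive log2 fold changes, and several members differed widely between pools of the same genotype. By edgeR's quasi-likelihood test with Benjamini-Hochberg adjustment over 16017 genes, 0 of 8 passed an adjusted p of 0.05 upward in KSPAPN and 0 of 8 downward, against 0.393% and 2.25% of all genes tested. Those shares stand for 63 genes higher and 361 lower, or 71 and 195 with total-count scaling and 97 and 278 with the GC and length trend removed. At an unadjusted p under 0.05, 0 of 8 were higher and 3 of 8 lower (Tsc22d3, Hsd11b1 and Klf9), against 7.52% and 11.2% of all genes. Leaving out 1 library changed this count, to 0 lower without KSPAPN 1, to 2 lower without KSPAPN 3, to 1 lower without Control 1 or Control 2, and to 2 higher and 1 lower without Control 3. With total-count scaling 2 were lower. Scaling moved the direction over all genes, since 40.2% of the 2992 genes at an unadjusted p under 0.05 were higher in the main analysis, 62.7% of 3280 with total-count scaling and 51.2% of 2930 with the GC and length trend removed. DESeq2 and limma likewise gave 0 members in either direction after adjustment, while without it DESeq2 gave 3 lower and limma, on either pseudocount, 2 lower. Across the 8 genes the log2 fold changes had a median of -0.162, beside 0.012 over all genes tested.

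**Figure D1:**
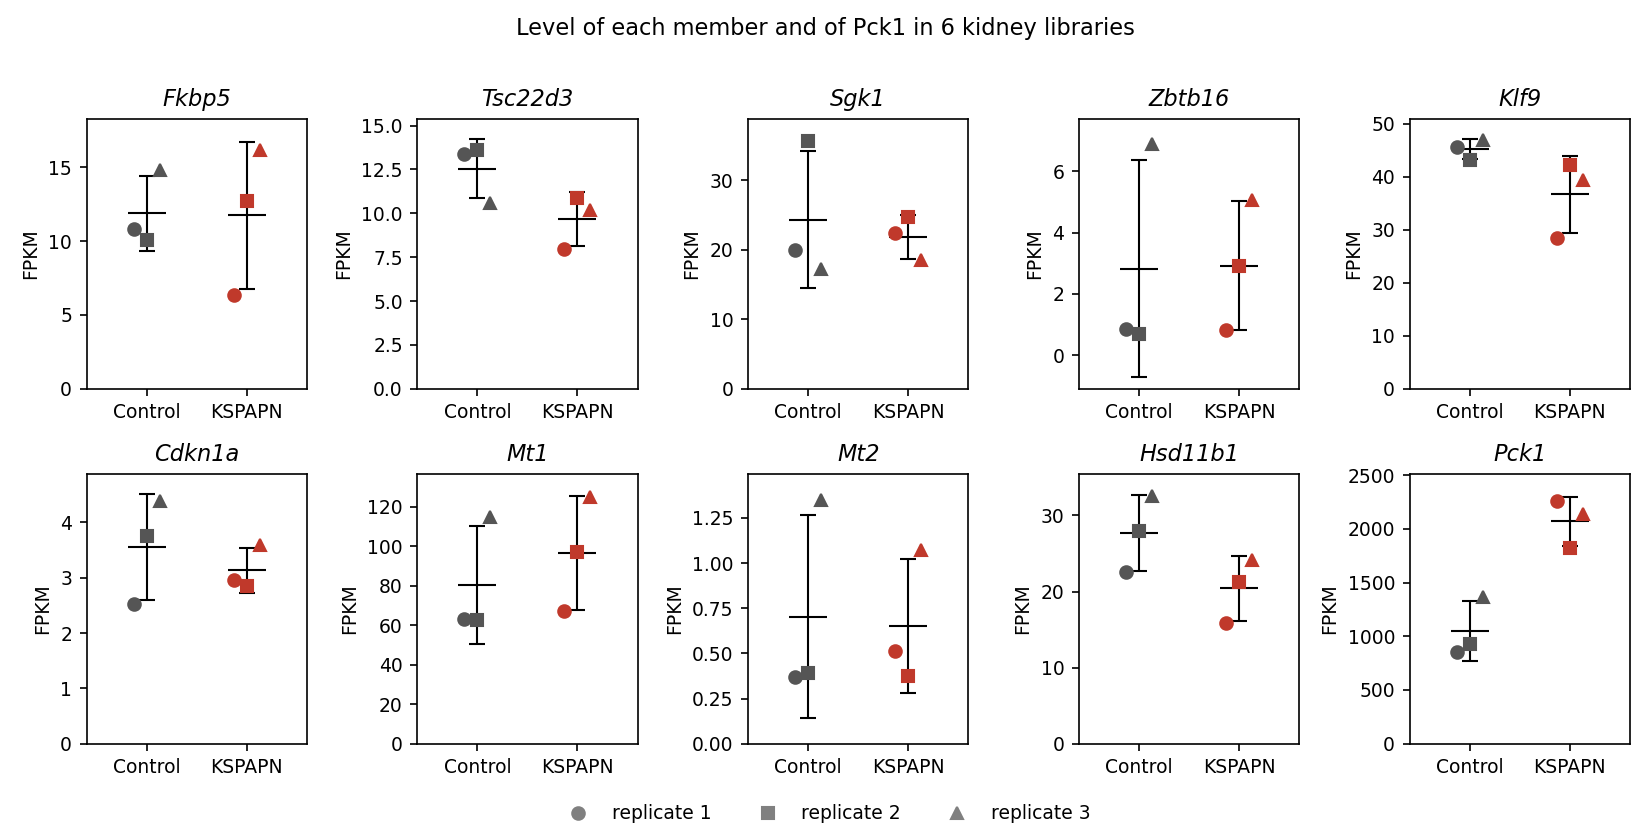
Level in FPKM (vertical axes, each starting at or below 0) of the 9 members and of Pck1 in 3 Control (grey) and 3 KSPAPN (red) libraries. Symbols give the replicate number, horizontal bars the mean and error bars the SD. Klf9 and Pck1 are the genes drawn whose groups do not overlap, and Zbtb16 spans 0.688 to 6.9 FPKM within Control.

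Fkbp5 and Tsc22d3 are among the targets most often used to read glucocorticoid action. Fkbp5 encodes a co-chaperone that lowers the affinity of the receptor for hormone, and it measured 10.8, 10.1 and 14.8 FPKM in Control 1, 2 and 3 and 6.35, 12.7 and 16.2 FPKM in KSPAPN 1, 2 and 3. The groups overlapped, with the lowest and the highest level both in KSPAPN libraries. The log2 fold change was -0.02 (SE 0.27, 95% confidence interval -0.62 to 0.58, edgeR adjusted p = 0.982), so changes between 0.65-fold and 1.5-fold lay within the interval. Its sign turned with total-count scaling and with the GC and length trend removed, and without Control 3 or KSPAPN 1, where it was 0.03, 0.05, 0.18 and 0.3.

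Tsc22d3 encodes GILZ, a leucine zipper protein that mediates anti-inflammatory actions of glucocorticoids. It measured 13.4, 13.6 and 10.6 FPKM in Control and 7.97, 10.9 and 10.2 FPKM in KSPAPN, replicates 1 to 3 in that order. Control 3 lay below KSPAPN 2, and KSPAPN 1 was the lowest library. Tsc22d3 had the lowest p of the members, with a log2 fold change of -0.37 (SE 0.13, 95% confidence interval -0.67 to -0.08, edgeR adjusted p = 0.17), or -0.24 without KSPAPN 1, and the adjusted p was 0.0464 with no filter on low counts, beside 0.452 as the highest of the alternatives. Among 13804 other protein-coding genes, Cryz, Glyctk and Smarca2 had the pattern most like it over the 6 libraries, with mean absolute differences of 0.0275, 0.0332 and 0.0342 in centred log2 CPM (counts scaled to library size).

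Sgk1 encodes a kinase that raises sodium transport and responds to both glucocorticoids and aldosterone. Its level was 20.03, 35.6 and 17.3 FPKM in Control 1, 2 and 3 and 22.4, 24.7 and 18.5 FPKM in KSPAPN 1, 2 and 3. All KSPAPN libraries lay within the Control range, and Control 2 stood highest. The log2 fold change was -0.15 (SE 0.23, edgeR adjusted p = 0.774), and 0.23 without Control 2. Of 8 genes of aldosterone-sensitive sodium transport, 0 passed an adjusted p of 0.05 in edgeR, against 0.393% of all genes higher and 2.25% lower, and 0 an unadjusted p of 0.05, against 7.52% and 11.2%.

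Zbtb16 and Klf9 encode transcription factors induced by the hormone. Zbtb16 measured 0.868, 0.688 and 6.9 FPKM in Control 1, 2 and 3 and 0.821, 2.9 and 5.05 FPKM in KSPAPN 1, 2 and 3, from counts of 63 to 641. Its levels were high in Control 3 and KSPAPN 3 and low in Control 1, Control 2 and KSPAPN 1. The highest Control library exceeded the lowest 10.1-fold in CPM, and the within-group SD of 1.59 on the log2 scale was above that of 99.9% of genes tested. The log2 fold change of 0.05 therefore had a 95% confidence interval of -1.71 to 1.81 (edgeR adjusted p = 0.984), and it was -0.38, -0.41 and -0.61 without Control 1, Control 2 and KSPAPN 3, but 1.91 without Control 3 and 0.52 without KSPAPN 1.

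Klf9 measured 45.6, 43.2 and 46.9 FPKM in Control and 28.5, 42.1 and 39.3 FPKM in KSPAPN, in the order of the replicate numbers. It was the 1 member of 9 whose groups did not overlap in FPKM, and also the 1 tested member whose groups did not overlap in CPM. In CPM, 13.1% of all genes tested likewise had every KSPAPN library below every Control library. The share with every KSPAPN library above was not counted. The exact two-sided permutation test on FPKM gave p = 0.1, the smallest that 3 against 3 allows. The log2 fold change was -0.3 (SE 0.13, 95% confidence interval -0.59 to -0.02, edgeR adjusted p = 0.244), and -0.14 without KSPAPN 1.

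Hsd11b1 encodes the enzyme that regenerates active glucocorticoid from its inert form. It measured 22.6, 27.97 and 32.5 FPKM in Control 1, 2 and 3 and 15.8, 21.2 and 24.2 FPKM in KSPAPN 1, 2 and 3. KSPAPN 3 lay above Control 1, so the groups overlapped. The log2 fold change was -0.44 (SE 0.16, 95% confidence interval -0.8 to -0.08, edgeR adjusted p = 0.183), or -0.27 without KSPAPN 1. With no filter on low counts, where the SE was 0.11, the adjusted p was 0.00268, beside 0.424 as the highest of the alternatives. It was 0.0158 with the replicate number as a block, although no label pairs the libraries by that number. Hsd11b1 lies wholly within the span of Lamb3 on the opposite strand, which had 70 to 149 counts, and use of strand in counting was not given in the sources used here.

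Cdkn1a encodes p21, an inhibitor of the cell cycle that p53 also induces. It measured 2.52, 3.76 and 4.39 FPKM in Control and 2.96, 2.85 and 3.6 FPKM in KSPAPN. All KSPAPN values lay within the Control range, and the log2 fold change was -0.17 (SE 0.21, edgeR adjusted p = 0.703), or 0.01 without Control 3. Of 14 p53 targets, 0 passed an adjusted p of 0.05 in edgeR, and 2 were higher and 0 lower at an unadjusted p under 0.05, against 7.52% and 11.2% of all genes. These were Btg2, with a log2 fold change of 0.32, and Trp53inp1, with 0.49, or 0.29 without Control 1. The edgeR adjusted p of Trp53inp1 was 0.000984 with no filter on low counts and 0.0407 with the replicate number as a block.

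Mt1 and Mt2 encode metallothioneins, which bind zinc and respond to metals as well as to glucocorticoids. Mt1 was the most abundant member, at 63.4, 62.9 and 115 FPKM in Control 1, 2 and 3 and 67.4, 97.3 and 125 FPKM in KSPAPN 1, 2 and 3. The groups overlapped, and replicate 3 was highest in each. Its log2 fold change was 0.27 (SE 0.25, 95% confidence interval -0.29 to 0.83, edgeR adjusted p = 0.615). Leaving out 1 library moved it between 0.05, without KSPAPN 3, and 0.62, without Control 3.

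Mt2 had only 4, 4 and 14 counts in Control and 7, 4 and 13 counts in KSPAPN and was not tested by edgeR. Its 0.367, 0.392 and 1.35 FPKM in Control overlapped the 0.511, 0.372 and 1.07 FPKM in KSPAPN, with replicate 3 highest in each group. The antisense gene Gm45774 covers 749 of the 905 bases of Mt2, and its part in the low counts was not tested. Of 5 metal response genes, 3 were tested and 0 passed an unadjusted p of 0.05 in edgeR, against 7.52% of all genes higher and 11.2% lower. Slc30a1, a zinc exporter, was the most abundant of them at 15.3 to 21.1 FPKM over the 6 libraries.

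For 8 members, 16 promoter windows were found in RefSeq (build GRCm38.p6), 6 of them of Sgk1 and 3 of Tsc22d3. The glucocorticoid response element was searched on both strands as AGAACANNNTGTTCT and as its single arm AGAACA, which overlaps the longer form. The longer form was present in 0.00913% of 32851 promoter windows and the arm in 19.0%. Of the 16 windows, 1 held the longer form (Sgk1) and 4 the arm (3 of Sgk1 and 1 of Tsc22d3). The core of the metal response element, TGCACNC or TGCGCNC, was present in 25.7% of all windows and in 4 of the 16, those of Hsd11b1, Mt1 and Mt2 and 1 of Sgk1. The E-box CACGTG was present in 7.15% of all windows and in 2 of the 16, that of Fkbp5 and 1 of Sgk1. A match describes letters in a window and not a site in use. The windows below are shown because 1 holds the full element and the others hold repeated metal cores, and capitals mark every match to these motifs. They lie at chr10:21993640-21993939, chr8:94178839-94179138 and chr8:94172368-94172667, all on the plus strand.
Sgk1: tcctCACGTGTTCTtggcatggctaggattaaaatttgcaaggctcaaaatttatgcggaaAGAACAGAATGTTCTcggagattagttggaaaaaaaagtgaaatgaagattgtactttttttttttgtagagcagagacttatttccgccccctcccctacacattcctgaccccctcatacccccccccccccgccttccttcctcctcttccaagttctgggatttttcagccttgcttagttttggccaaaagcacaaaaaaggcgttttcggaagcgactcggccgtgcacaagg
Mt1: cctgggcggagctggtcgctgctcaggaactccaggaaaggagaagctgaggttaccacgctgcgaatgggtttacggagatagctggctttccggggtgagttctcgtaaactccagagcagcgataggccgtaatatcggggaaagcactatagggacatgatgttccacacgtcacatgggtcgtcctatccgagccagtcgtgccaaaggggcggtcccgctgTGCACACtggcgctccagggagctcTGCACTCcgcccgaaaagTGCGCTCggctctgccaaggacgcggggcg
Mt2: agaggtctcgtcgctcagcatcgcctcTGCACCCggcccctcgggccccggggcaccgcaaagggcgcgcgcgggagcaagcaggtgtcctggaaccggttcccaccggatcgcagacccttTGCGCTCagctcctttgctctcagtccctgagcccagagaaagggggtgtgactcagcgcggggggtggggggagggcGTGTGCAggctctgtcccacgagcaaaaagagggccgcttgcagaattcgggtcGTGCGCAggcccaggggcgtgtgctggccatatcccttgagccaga
In the Sgk1 window the E-box overlaps a further arm of the element near its start. The Mt1 window holds 3 metal cores and the Mt2 window holds 4.

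The glucocorticoid receptor gene Nr3c1 was at 12.9, 13.8 and 11.5 FPKM in Control and 13.6, 14.7 and 14.8 FPKM in KSPAPN, and the mineralocorticoid receptor Nr3c2 was at 2.67, 2.74 and 2.4 FPKM and 2.998, 3.0 and 3.15 FPKM. In FPKM Nr3c1 overlapped between groups and Nr3c2 did not, whereas in CPM every KSPAPN library lay above every Control library for both. Their edgeR adjusted p-values were 0.342 and 0.337. Hsd11b2, which inactivates the hormone, had a log2 fold change of -0.3 (SE 0.1, edgeR adjusted p = 0.133), or -0.11 with the GC and length trend removed. H6pd, which supplies the cofactor of Hsd11b1, had -0.18 (SE 0.09, edgeR adjusted p = 0.311), or -0.11 in that setting. Of 16 genes of receptors, chaperones and steroid handling, 0 were higher and 1 lower past the adjusted threshold in edgeR, against 0.393% and 2.25% of all genes. Without adjustment, 1 was higher (Ncoa1, log2 fold change 0.25) and 3 were lower (Abcb1b, Hsd11b2 and Fkbp4, the last at -0.32, or -0.2 with the GC and length trend removed), against 7.52% and 11.2%. The gene past the adjusted threshold was Abcb1b, a P-glycoprotein that exports steroids, at 1.01, 0.794 and 0.719 FPKM in Control and 0.263, 0.383 and 0.393 FPKM in KSPAPN. Every KSPAPN library lay below every Control library, and Abcb1b fell by 1.28 on the log2 scale (SE 0.24, edgeR adjusted p = 0.0256). The adjusted p was above 0.05 without Control 1, Control 2 or KSPAPN 3, at 0.147, 0.0671 and 0.0745, and with limma on log2(FPKM + 1) and log2(FPKM + 0.1), at 0.0674 and 0.0751. On the first of these scales the log2 fold change was -0.45.

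Of 25 other glucocorticoid-induced genes, 24 were tested, of which 7 had positive and 17 negative log2 fold changes with a median of -0.089. Their summed level was 434, 499 and 401 FPKM in Control and 331, 372 and 333 FPKM in KSPAPN, without overlap. Errfi1 weighed most in this sum, at 134, 196 and 112 FPKM in Control and 56.1, 119 and 87.5 FPKM in KSPAPN. Without it the sums were 299.5, 303.0 and 289.0 FPKM and 275.0, 252.0 and 246.0 FPKM, also without overlap. The 9 members, led by Mt1, summed to 179.6, 198 and 249 FPKM in Control and 153, 215 and 243 FPKM in KSPAPN, and there the groups overlapped. Of the 24 other glucocorticoid-induced genes tested, 0 were higher and 1 was lower after adjustment in edgeR, against 0.393% and 2.25% of all genes. Without adjustment, 0 were higher and 3 lower, against 7.52% and 11.2%, and beside Fam107a these were Nfil3 and Errfi1, with log2 fold changes of -0.82 and -0.75, the latter -0.48 without Control 2. The gene called was Fam107a, which encodes an actin-associated protein. It measured 25.3, 20.9 and 17.4 FPKM in Control and 5.36, 9.53 and 7.46 FPKM in KSPAPN, without overlap. Fam107a fell by 1.51 on the log2 scale (SE 0.19, edgeR adjusted p = 0.00613), and kept an adjusted p under 0.05 in all 15 alternative settings.

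**Figure D2:**
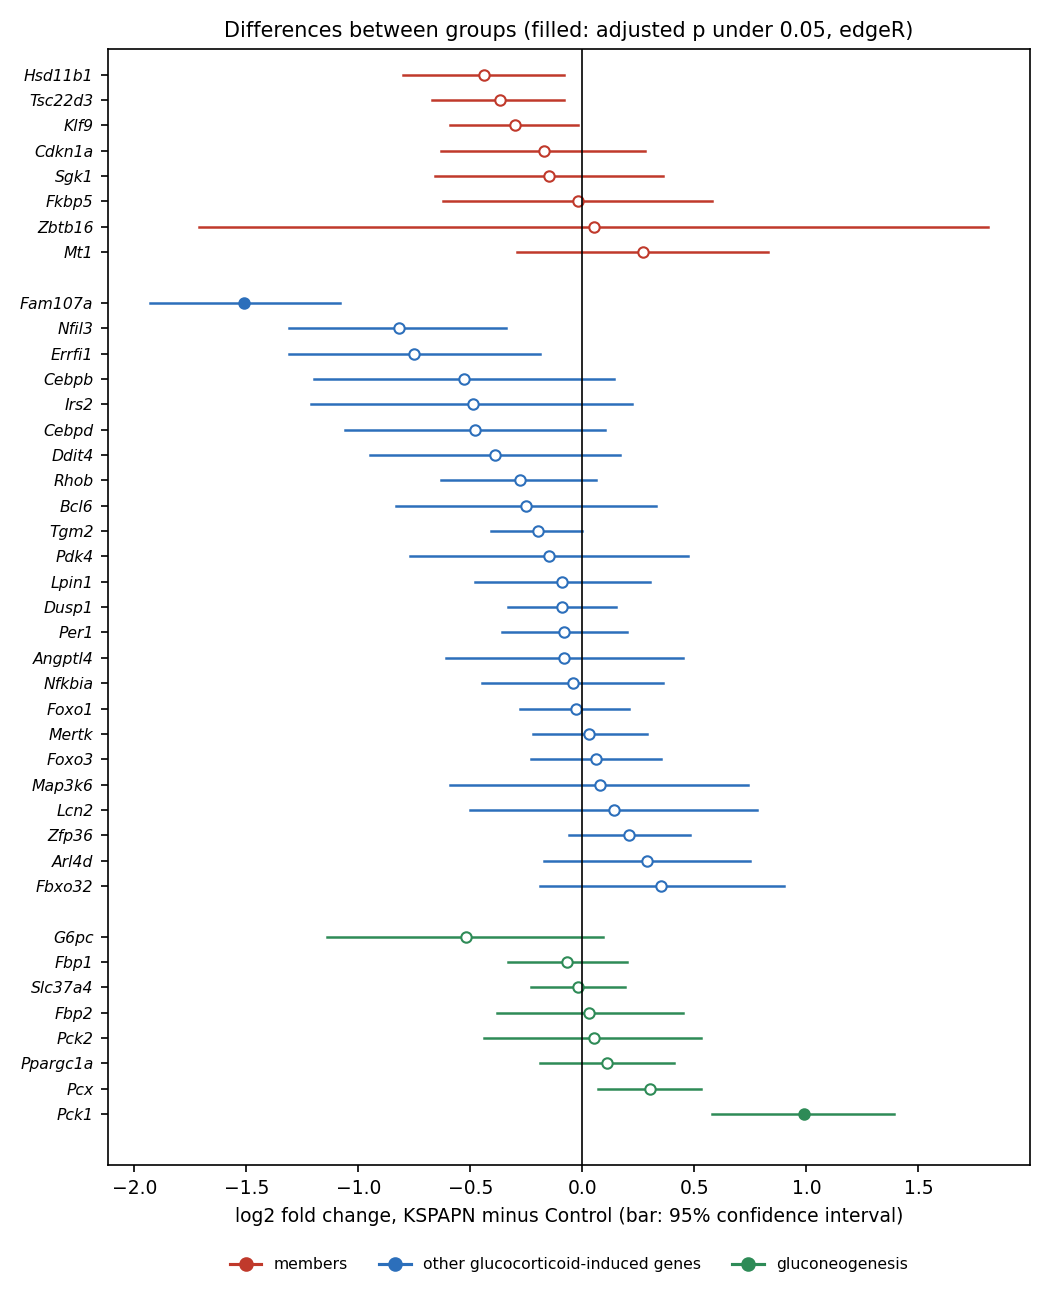
Log2 fold change, KSPAPN minus Control (horizontal axis), of the 8 members tested (red), 24 other glucocorticoid-induced genes (blue) and 8 genes of gluconeogenesis (green). Points are estimates, bars 95% confidence intervals, and filled points have an edgeR adjusted p under 0.05. Among the genes drawn, Fam107a at -1.51 and Pck1 at 0.99 are filled.

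Gluconeogenic genes were set beside the members. Pck1, the rate-limiting enzyme of renal gluconeogenesis, measured 853, 931 and 1366 FPKM in Control 1, 2 and 3 and 2256, 1818 and 2137 FPKM in KSPAPN 1, 2 and 3. All KSPAPN libraries exceeded all Control libraries, and Pck1 rose by 0.99 on the log2 scale (SE 0.18, 95% confidence interval 0.58 to 1.39, edgeR adjusted p = 0.0248). Its adjusted p was 0.133, 0.0832 and 0.0988 without Control 1, Control 2 and KSPAPN 3, and 0.0782 and 0.0794 with limma on log2(FPKM + 1) and log2(FPKM + 0.1). Of the 8 genes of the list, 1 was higher and 0 lower at an adjusted p under 0.05, against 0.393% and 2.25% of all genes, and 2 and 0 without adjustment, against 7.52% and 11.2%. Pcx, pyruvate carboxylase, had a log2 fold change of 0.3 (edgeR adjusted p = 0.162), Fbp1 of -0.07 (0.811) and G6pc, glucose-6-phosphatase, of -0.52 (0.348). The sign of Fbp1 turned with total-count scaling and with the GC and length trend removed, at 0.01 and 0.1. G6pc had a log2 fold change of -1.02 without KSPAPN 3 (edgeR adjusted p = 0.0369) and -0.26 without KSPAPN 1 (0.555). With no filter on low counts its edgeR adjusted p was 7.22e-05, from an SE of 0.11 in place of 0.28.

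Pck1 was then set against the members library by library. Within KSPAPN it was highest in KSPAPN 1, where 6 of 9 members had the lowest level of their group and 0 the highest, Fkbp5, Tsc22d3 and Klf9 among the former, against 39.7% and 35.1% of all genes tested. Within Control it was highest in Control 3, where 7 of 9 members had the highest level of their group and 2, Tsc22d3 and Sgk1, the lowest, against 29.4% and 32.8%.

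Control 3 was the highest Control library for 7 of 9 members and KSPAPN 3 the highest KSPAPN library for 6 of 9, against 29.4% and 30.04% of all genes tested. Fkbp5, Zbtb16, Cdkn1a, Mt1, Mt2 and Hsd11b1 were highest in replicate 3 of both groups, as were 11.4% of all genes, whereas Sgk1 was lowest there. Tsc22d3 was highest in Control 2 and KSPAPN 2, and Klf9 in Control 3 and KSPAPN 2. Within-group SDs on the log2 scale exceeded those of 88.9% of genes tested for Fkbp5, 85.4% for Mt1 and 81.4% for Sgk1, but 52.3% for Klf9 and 53.2% for Tsc22d3. These are descriptions of 6 pools.

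**Figure D3:**
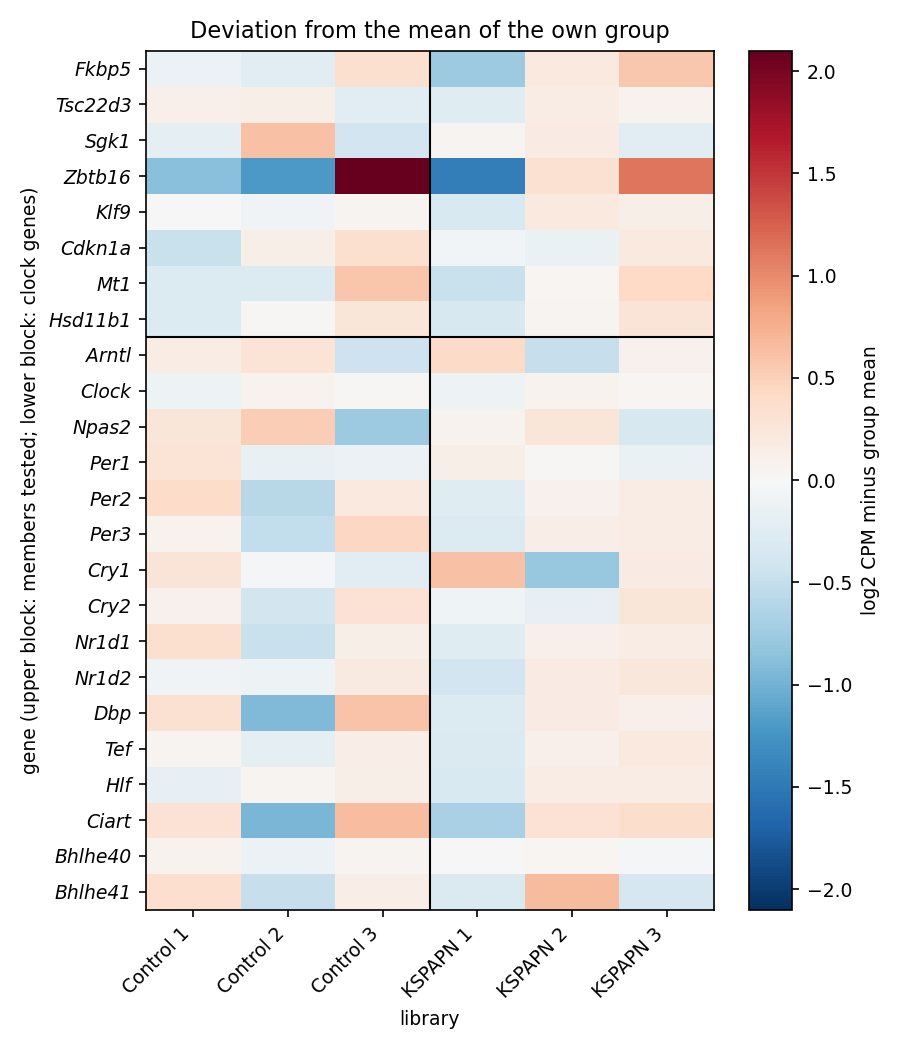
Deviation of each library from the mean of its own group in log2 CPM (colour; red above, blue below) for the 8 members tested and 16 clock genes (rows) in 6 libraries (columns). Zbtb16 deviates by 2.09 in Control 3 and by -1.45 in KSPAPN 1, and Dbp by -0.92 in Control 2.

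Clock genes moved between pools as well, and their part in the members' spread was not tested. Dbp, an output gene of the clock, measured 23.9, 10.1 and 28.95 FPKM in Control and 15.3, 21.3 and 20.3 FPKM in KSPAPN. Arntl, which peaks opposite to Dbp, measured 1.51, 1.64 and 0.983 FPKM in Control and 1.54, 0.836 and 1.25 FPKM in KSPAPN. Control 2 was low for Dbp and high for Arntl, and Control 3 the reverse. Per1, induced by both clock and hormone, was at 12.7, 9.39 and 9.55 FPKM and at 10.6, 10.2 and 9.03 FPKM. Of 16 clock genes, 0 passed an adjusted p of 0.05 in edgeR, and Npas2 (log2 fold change -0.99), Nr1d1 (-0.43) and Clock (0.22) had an unadjusted p under 0.05. Their log2 fold changes were -0.51 for Npas2 with limma on log2(FPKM + 1), -0.25 for Nr1d1 without Control 1 and 0.05 for Clock with the GC and length trend removed. Of 8 immediate early genes, Egr1 had an unadjusted p under 0.05 (0.92, or 0.64 without Control 2), and of 9 tubular injury genes, 7 of them tested, Clu did (-0.4, or -0.24 with the GC and length trend removed). Over all genes, 7.52% were higher and 11.2% lower at that threshold. DESeq2 gave adjusted p-values of 0.0302 for Npas2, 0.0109 for Egr1 and 0.0326 for Clu. With no filter on low counts, edgeR gave 0.000976 for Npas2, 0.00526 for Nr1d1, 1.04e-05 for Egr1 and 0.00821 for Clu. That setting gave small SEs for members with a wide spread, as the closing section shows. The edgeR adjusted p of Npas2 was also 0.0402 with the replicate number as a block and 0.0332 without Control 3. That of Clu was 0.0112 without KSPAPN 1.

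Cell composition was read from marker lists, and fewer cells of a type cannot be told apart from less RNA per cell. Summed proximal tubule markers were at 3712, 3656 and 3241 FPKM in Control and 2896, 3111 and 3025 FPKM in KSPAPN. The groups did not overlap, and 2 of 10 markers fell in edgeR, against 2.25% of all genes, Slc22a6 by 0.46 and Slc7a13 by 1.46 on the log2 scale (adjusted p = 0.0388 and 0.0259). These calls were lost in 8 and 5 of 15 alternatives, with edgeR adjusted p-values up to 0.149 without Control 1 for Slc22a6 and 0.118 without Control 1 for Slc7a13. The 5 thick ascending limb markers went both ways, with a median log2 fold change of -0.045. Slc12a1 rose by 0.52 (edgeR adjusted p = 0.0437), a call lost in 8 of 15 alternatives, with an adjusted p of up to 0.194 without Control 1. Cldn10 and Cdh16 had log2 fold changes of -0.41 and -0.23 without overlap of the groups (edgeR adjusted p = 0.0881 and 0.236), the latter -0.11 with the GC and length trend removed, and Umod, the most abundant, had -0.04. The part of these markers in the values of the members was not tested. Principal cell markers summed to 608 FPKM in KSPAPN 1 and 292 to 443 FPKM in the other libraries, with Aqp2 the most abundant.

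Other kidney cell lists had 0 genes past an adjusted p of 0.05 in edgeR, against 0.393% of all genes higher and 2.25% lower. Among genes at an unadjusted p under 0.05, log2 fold changes were -0.36 for Slc12a3 of the distal convoluted tubule, -0.32 for Aqp3 of principal cells, -0.71 for Slc4a1 of intercalated cells and 0.34 for the adipocyte marker Fabp4. Those of Slc12a3, Aqp3 and Fabp4 shrank to -0.2 without KSPAPN 1, -0.16 with the GC and length trend removed and 0.18 without KSPAPN 3. DESeq2 gave an adjusted p of 0.0135 for Slc4a1. The lists of these genes went both ways. Log2 fold changes were positive for 2 genes and negative for 2 in each of the distal convoluted tubule, principal cell and adipocyte lists. In the intercalated cell list 3 were positive and 2 negative, with a median of 0.144. The most abundant markers were Calb1 of the distal convoluted tubule (mean 92.1 FPKM), Atp6v1g3 of intercalated cells (24.8), Podxl of podocytes (31.8), Emcn of endothelium (9.05), Acta2 of stroma (14.2) and Csf1r of macrophages (15.1). Lymphocyte markers summed to 0.182 to 0.915 FPKM, led by Cd79a. Hepatocyte markers summed to 9.54 to 23.7 FPKM, led by Apoa2.

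Adrenal tissue, the source of the hormone, lies against the kidney. The adrenal cortex markers Cyp11b1 and Cyp11b2 were at 0 in all libraries, and the 7 markers summed to 1.3 to 2.62 FPKM, mostly from Star. The adrenal medulla markers Th, Pnmt and Chga were at 0 in all libraries, and Chgb was the most abundant of 5 at a mean of 0.0156 FPKM.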

How the data were processed

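Whole-kidney RNA-seq was available for 3 Control and 3 KSPAPN libraries, grouped by the labels. The authors deposited raw counts per gene and FPKM values, and both were used as deposited. The submitters' processing notes name STAR 2.5, TopHat, HTSeq 0.6.1, DESeq2 and edgeR. Of 54532 rows, 54495 matched GENCODE M21 and 37 did not. Counts were tested with edgeR 4.0.16 in R 4.3.3 (TMM, filterByExpr with a minimum count of 10 and a minimum total of 15, quasi-likelihood test, Benjamini-Hochberg adjustment over 16017 genes). FPKM values of single genes and of summed lists were compared by two-sided exact permutation tests over 20 arrangements, whose smallest p is 0.1. Alternatives were DESeq2 1.42.0, RLE factors, total counts, no filter, limma 3.58.1 on log2(FPKM + 1) and log2(FPKM + 0.1), the replicate number as a block, normalization without mitochondrial genes and Adipoq, a GC and length trend removed, and leaving out each library. The fitting script was tested on simulated counts. Tables and plots used Python 3.11.15, pandas 2.3.3 and matplotlib 3.10.9.

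Members and lists were chosen with earlier results of these data known, so no enrichment test was run. Permutation p-values of summed lists were computed and are not reported. Genes named were the members, Adipoq, chosen gluconeogenic, receptor, enzyme and clock genes, from each list those with an adjusted p under 0.05 or else up to 4 with the lowest unadjusted p under 0.05, the most abundant marker of each marker list, and the 3 protein-coding genes most like the member with the lowest p. Genes named outside this rule, after their values were seen, were Slc30a1, Alb, Cldn10, Cdh16, Ncoa1, Fkbp4, Errfi1, Nfil3, markers at 0 and genes overlapping a member. Some genes that the rule names are not reported here.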

Additional observations from a re-analysis of the deposited data

How the results depend on the processing

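No member passed an adjusted p of 0.05 upward under any of the 15 alternatives. Downward, 2 members passed with no filter on low counts (Tsc22d3 and Hsd11b1), where 1339 genes in all passed in place of 424. In that setting the SE was 0.11 for Fkbp5, Sgk1, Mt1 and Hsd11b1 and 0.17 for Zbtb16. In the main analysis these SEs were 0.27, 0.23, 0.25, 0.16 and 0.8. Adjusted p-values with no filter, here and above, thus leave out much of the spread between pools of such genes. The count over all genes was 977 with DESeq2, 266 with total counts only, 128 with limma on log2(FPKM + 1) and 119 with limma on log2(FPKM + 0.1), and leaving out 1 library gave 39 (without Control 1) to 734 (without KSPAPN 1), with 123 without Control 2, 281 without KSPAPN 2 and 66 without KSPAPN 3. The cause was not tested. Median log2 fold changes of the members stayed negative in all of these, from -0.33 to -0.072. With the replicate number as a block, 1 member passed downward (Hsd11b1, adjusted p = 0.0158) and 929 genes in all. Deviations of same-numbered libraries correlated at 0.0537, 0.154 and 0.173 across 16017 genes, so the numbers were not taken to pair the samples, although every library correlated best with its own number, a hint from the data and not the design. Signs turned only for values whose edgeR adjusted p was above 0.05. With total counts only, log2 fold changes were 0.03 for Fkbp5, 0.01 for Fbp1 and 0.03 for Umod. With the GC and length trend removed they were 0.05 for Fkbp5, 0.1 for Fbp1, 0.04 for Per1, 0.18 for Dbp, 0.05 for Umod, -0.03 for Calb1, -0.03 for Emcn, 0.02 for Acta2 and 0.1 for Apoa2. Leaving out 1 library moved Fkbp5 between -0.31 and 0.3, Sgk1 between -0.34 and 0.23, Zbtb16 between -0.61 and 1.91, Cdkn1a between -0.37 and 0.01, Per1 between -0.16 and 0.08, Dbp between -0.47 and 0.17, Arntl between -0.38 and 0.02, Umod between -0.2 and 0.07, Aqp2 between -0.32 and 0.4, Emcn between -0.01 and 0.12, Acta2 between -0.24 and 0.02 and Apoa2 between -0.42 and 0.09. Over all alternatives Tsc22d3 lay between -0.47 and -0.24, Hsd11b1 between -0.58 and -0.27, Klf9 between -0.41 and -0.14 and Mt1 between 0.05 and 0.62. Mt2 had 4 to 14 counts a library, too few for the filter.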
